A study of Homo sapiens with 15 samples.

Results

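The genes followed here belong to the switch that starts mitosis. CDC25A, CDC25B, CDC25C, WEE1, PKMYT1, PLK1, AURKA, AURKB, TTK and NEK2 were measured in neuroblastoma cells in which CDK2 was silenced. They were chosen by name, as every probe set annotated to exactly 1 of these gene symbols, which gave 19 of the 54675 probe sets on the array for 10 of the 19775 genes that such probe sets name. The cells were IMR32, an established human neuroblastoma line with amplified MYCN. The line was 1 stably transfected clone that carried a tetracycline repressor driven by a constitutive CMV promoter (pcDNA6/TR) and a short hairpin RNA against nucleotides 546 to 566 of the CDK2 mRNA (pTER/CDK2), and the hairpin was switched on with doxycycline at 100 ng/ml. Total RNA was taken at 0, 8, 24, 48 and 72 h, with 3 arrays at each of the 5 times, 15 in all, from cells in medium with 10% fetal calf serum. No unit of time stands in the labels, and it is read as hours here because the study is known to count in hours. All 5 groups carry both constructs, and 0 h is the start of induction. Because cells kept without doxycycline, or carrying a different hairpin, were not measured at the later times in the samples used here, time in culture, doxycycline and loss of CDK2 cannot be told apart. Whether the 3 arrays of a time stand for separate cultures is not given in the labels, and each p-value thus rests on the spread between these arrays, which may be technical.

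Entry into mitosis is a switch on CDK1 bound to cyclin B. WEE1 and PKMYT1 (also called Myt1) hold the complex inactive by phosphorylating CDK1 in its ATP-binding loop, and the CDC25 phosphatases remove those phosphates. CDC25A also acts on CDK2 at the start of S phase, while CDC25B and CDC25C act mainly at the G2/M transition. PLK1 activates CDC25C and marks WEE1 for destruction, AURKA activates PLK1 and matures the spindle poles, AURKB corrects kinetochore attachments as the kinase of the chromosomal passenger complex, TTK (Mps1) starts the spindle assembly checkpoint, and NEK2 separates the centrosomes. Most of these transcripts rise in S and G2 phase in cycling cells. In RNA from whole cultures, fewer cells in those phases and less RNA per cell cannot be told apart.

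Of the 10 genes 9 fell strongly between 24 and 72 h, and CDC25B alone fell much less. At 48 h, 9 of the 10 genes had passed the test as lower than at 0 h, all except CDC25B, and at 72 h all 10 had. On the log2 scale, the 9 genes other than CDC25B had changed at 72 h by between -1.64 (PKMYT1) and -2.67 (PLK1 and AURKB), and their mean signals at 72 h were between 0.281 (WEE1) and 0.115 (CDC25C) of those at 0 h. Against 0 h CDC25B, measured by 1 probe set, fell by 0.24 ± 0.09 (SE, n = 3 arrays per time), and its mean signal at 72 h was 0.844 of that at 0 h. Between 24 and 72 h its mean signal went from 577.4 to 403.4.

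In what follows a signal is the deposited linear intensity of a probe set, and a change is a difference of mean log2(signal + 16) between times, a scale that understates the change of dim probe sets. Tests were limma's moderated tests in a fit over all 15 arrays, with Benjamini-Hochberg adjustment over the 11774 genes tested and a threshold of 0.05. The brightest probe set past a filter on dim ones stood for each gene, and all 10 genes had such a probe set. Of the 19 probe sets 18 passed the filter, and the other, 216914_at for CDC25C, lay below it with signals of 1.3 to 13.5 on all arrays. Signals of different probe sets cannot be set against each other as levels of different genes.

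CDK2, the targeted gene, gave signals of 245.5, 236 and 213.7 at 0 h and 100.8, 92.6 and 90.2 at 8 h, and its mean of 94.5 at 8 h fell further to 80.4, 48.6 and 30.1 at the later times. Its change against 0 h was -1.16 ± 0.14 at 8 h and -2.45 ± 0.14 at 72 h (SE, limma's adjusted p = 0.00046 and 1.2e-10). Noradrenergic markers of neuroblastoma were present, with MYCN at 4076 to 6128.4, GATA3 at 3080.2 to 4205.2 and PHOX2A at 881.6 to 1638.1, whereas TH, which makes the catecholamine precursor, lay at 0.5 to 9.5. The summed signal of the 8 measured markers of that list was 10405.8 to 10800.4 at 0 h and 12641.4 to 13594.4 at 72 h. Immune and endothelial markers summed to at most 33.5 and 67.4 on any array, epithelial markers to at most 61.1, and of 5 fibroblast markers COL1A1 lay at 197.7 to 425.3 while DCN and COL3A1 stayed at or below 27.6. PDGFRB, another of them, lay at 35.4 to 91.8 and passed as higher at 48 h (0.60 ± 0.17, limma's adjusted p = 0.0092) and 72 h (0.64 ± 0.17, adjusted p = 0.0041), the times at which the genes described here were low. The brighter COL1A1 did not pass at 48 h (0.36 ± 0.21, limma's adjusted p = 0.18) or 72 h (0.04 ± 0.21, adjusted p = 0.88). Of the 7 noradrenergic markers tested, 5 passed as higher and 0 as lower at 72 h, against 32.8% and 22.7% of all genes. Among the 5 were ISL1 (1.74 ± 0.11) and HAND2 (1.08 ± 0.13). The part of these markers in the changes below was not tested.

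To show what the promoters of these genes hold, stretches just upstream of an annotated start are printed from RefSeq (GRCh38.p14). It listed windows of 250 bases before to 50 bases after the start for 6 of the 10 genes. None was listed for WEE1, PKMYT1, AURKA and TTK. Some genes have several listed starts, so a printed stretch can lie downstream of another start. The stretches are shown because promoters of mitotic genes are known for 3 elements. These are the cell cycle genes homology region (CHR), the CCAAT box bound by NF-Y, and the E2F site. The genes printed did not all move alike, as CDC25B fell much less than the others. Whether these elements had a part in the changes was not tested. Both strands were searched. The letters were TTTGAA (also with its variants TTCGAA and also TTTAAA) for CHR and CCAAT for the NF-Y box. For E2F they were TTGGCGC with the variants TTCCCGC, then TTGCCGC, then TTCGCGC. Capitals mark matches, and a CCAAT box on the opposite strand reads ATTGG. All stretches are written on the strand of the gene.
CDC25A, 150 bases to the start, chr3:48188418-48188567, minus strand: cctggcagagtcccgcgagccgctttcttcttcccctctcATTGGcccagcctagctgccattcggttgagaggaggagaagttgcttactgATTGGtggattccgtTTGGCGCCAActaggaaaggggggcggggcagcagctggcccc
CDC25B, 30 bases, chr20:3796260-3796289, plus strand: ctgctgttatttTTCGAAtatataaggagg
CDC25C, 30 bases, chr5:138331817-138331846, minus strand: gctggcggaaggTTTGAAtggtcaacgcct
PLK1, 150 bases to the start, chr16:23678739-23678888, plus strand: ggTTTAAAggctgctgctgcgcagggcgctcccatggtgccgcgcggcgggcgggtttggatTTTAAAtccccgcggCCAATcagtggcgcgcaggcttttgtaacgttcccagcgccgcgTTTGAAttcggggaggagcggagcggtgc
AURKB, 150 bases to the start, chr17:8210250-8210399, minus strand: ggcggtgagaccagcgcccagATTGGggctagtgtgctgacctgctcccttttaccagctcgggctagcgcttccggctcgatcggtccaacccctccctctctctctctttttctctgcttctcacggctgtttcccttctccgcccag
NEK2, 150 bases to the start, chr1:211675622-211675771, minus strand: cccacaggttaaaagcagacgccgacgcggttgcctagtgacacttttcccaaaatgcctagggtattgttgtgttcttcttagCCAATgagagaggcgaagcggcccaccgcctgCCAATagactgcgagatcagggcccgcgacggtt

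A CCAAT box stood in at least 1 window of all 6 genes and in 9 of their 13 windows, against 34.6% of all 35116 windows in the table. A CHR match stood in 5 of the 13 windows and in 3 genes, CDC25B, CDC25C and PLK1, against 25.1% of all windows. An E2F match stood in 4 of the 13 windows and in 3 genes, CDC25A, CDC25B and CDC25C, against 13% of all windows. In CDC25A the letters TTGGCGC occur on both strands in overlapping positions, at bases -43 to -37 and -40 to -34 from the start, below 2 CCAAT boxes at -58 to -54 and -110 to -106. In PLK1 the CHR letters TTTGAA lie at -29 to -24, with a CCAAT box upstream at -73 to -69. In 1 of the 4 windows of CDC25C they lie at -30 to -25, with a CCAAT box at -85 to -81. From the start of an overlapping CDC25C window the same letters lie downstream, at 44 to 49, so this 1 site counts in 2 windows. In CDC25B the letters TTCGAA lie at -38 to -33 in 1 of its 4 windows, with a CCAAT box at -73 to -69. Some windows of 1 gene overlap and share sequence. The percentages are shares of windows and can be set against the counts of windows only. A share per gene was not computed, and a gene with several windows has more chances of a match. A match says only that the letters are present.

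**Figure D1:**
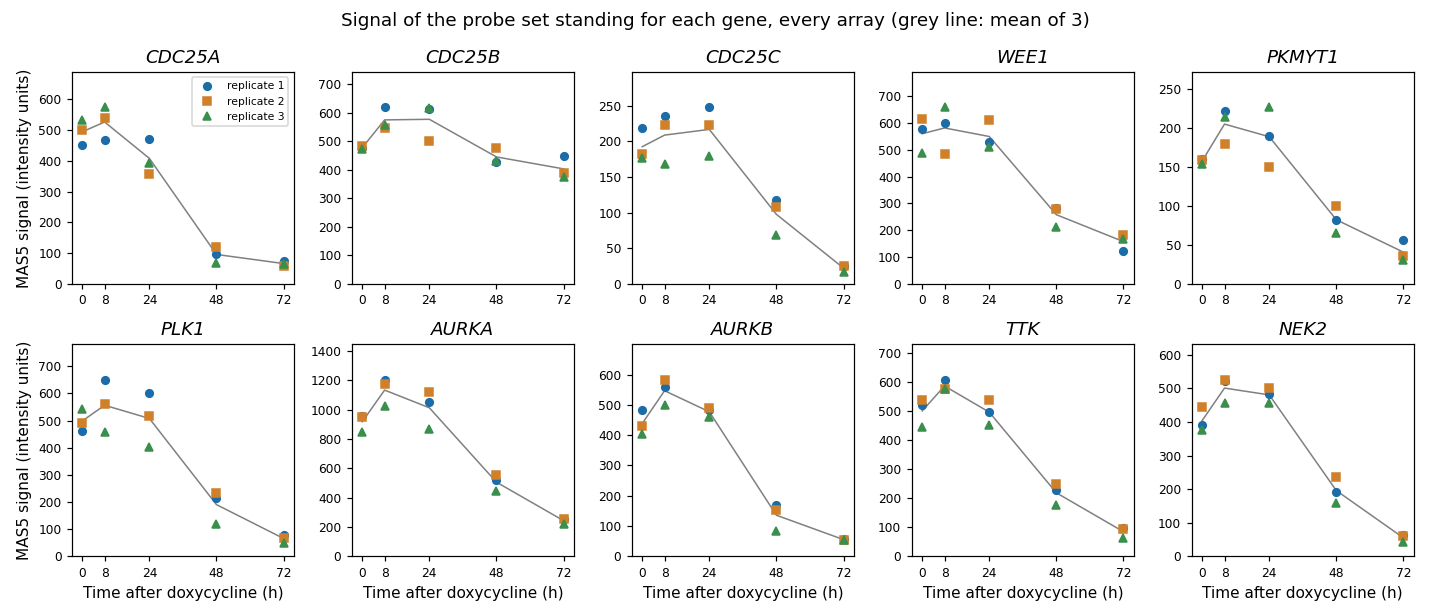
Signal (linear intensity, vertical axis from 0) of the probe set that stood for each gene, against time after doxycycline in hours, with 1 point per array, symbols for the replicate numbers 1, 2 and 3, and a line through the mean of 3 arrays. In 9 panels the 48 h and 72 h points lie below all points at 0 h, while the CDC25B points move only between 374.6 and 619.9.

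CDC25A, the phosphatase of the family that also acts at the start of S phase, made most of its fall between 24 and 48 h in the probe set that stood for it. The 3 arrays gave signals of 450.1, 499 and 533.6 at 0 h, 466.1, 537.7 and 574.2 at 8 h, and 470.9, 358 and 394.2 at 24 h. They gave 97.6, 120.5 and 68.1 at 48 h and 75, 58.2 and 64.1 at 72 h. The first 3 times overlap, all arrays at 48 and 72 h lie far below them, and the 48 and 72 h arrays overlap in part. The change against 0 h was 0.09 ± 0.15 at 8 h and -0.27 ± 0.15 at 24 h, neither past the test (adjusted p = 0.92 and 0.24), then -2.22 ± 0.15 at 48 h and -2.64 ± 0.15 at 72 h (adjusted p = 2.5e-09 and 6.9e-11). The change from 24 to 48 h was -1.95 ± 0.15 (adjusted p = 7.1e-08), and the further difference to 72 h, -0.42 ± 0.15, did not pass (adjusted p = 0.074). In another of its probe sets, 1555772_a_at, the later step did pass (-0.78 ± 0.17, adjusted p = 0.012 over all probe sets).

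CDC25B, a starter phosphatase of G2/M that acts at centrosomes and in the cytoplasm, kept most of its signal in its only probe set, 201853_s_at. Its arrays gave 477.1, 483.4 and 472.7 at 0 h, 619.9, 547.1 and 558.8 at 8 h and 613.7, 501 and 617.6 at 24 h. They gave 426, 477.4 and 432.5 at 48 h and 447.7, 387.8 and 374.6 at 72 h. All arrays at 8 and 24 h lie above those of 0 h, the 48 h arrays reach into the range of 0 h, and the 72 h arrays lie just below it. The change was 0.26 ± 0.09 at both 8 and 24 h, which did not pass (adjusted p = 0.34 and 0.069), -0.10 ± 0.09 at 48 h (adjusted p = 0.4) and -0.24 ± 0.09 at 72 h (adjusted p = 0.034). From 24 to 48 h it fell by 0.36 ± 0.09 (adjusted p = 0.0082). The 72 h call was lost without any 1 of the 0 h arrays (adjusted p = 0.06 to 0.082), without 72 h replicate 2 (0.098) or 72 h replicate 3 (0.12), and without a variance trend (0.051). The fall from 24 to 48 h was -0.29 and did not pass with replicates 1 and 2 alone (adjusted p = 0.071).

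CDC25C, the phosphatase that PLK1 switches on at the onset of mitosis, had changed less than CDC25A at 48 h and by a similar amount at 72 h, on this scale and in the probe sets that stood for them. Signals of its arrays were 218.6, 182.9 and 176 at 0 h, 235.4, 222.5 and 168.5 at 8 h and 248, 223 and 179.4 at 24 h. At 48 h they gave 117.2, 107.4 and 67.9 and at 72 h 25.3, 24.4 and 16.5. The first 3 times overlap, the 48 h arrays form a step between, and the 72 h arrays lie close to the added constant of 16, so the change at 72 h is understated. The change was 0.10 ± 0.17 at 8 h and 0.15 ± 0.17 at 24 h, neither past the test, then -0.90 ± 0.17 at 48 h and -2.46 ± 0.17 at 72 h (adjusted p = 0.00034 and 1.2e-09). Both steps passed, with -1.05 ± 0.17 from 24 to 48 h and -1.56 ± 0.17 from 48 to 72 h (adjusted p = 2e-04 and 8.2e-06).

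The 3 phosphatases were compared within arrays, as the difference of their log2 values. At 48 h CDC25A had moved against CDC25C by -1.32 and against CDC25B by -2.12, and in both cases the 3 differences at 48 h lay outside the range of the 3 at 0 h. At 72 h the difference from CDC25B was -2.40, while that from CDC25C had shrunk to -0.19, with values of -0.42 to 0.01 at 72 h that overlap those of -0.30 to 0.22 at 0 h. CDC25B and CDC25C moved apart by 0.80 at 48 h and by 2.22 at 72 h. An exact two-sided permutation test of 3 arrays against 3 cannot go below p = 0.1, which was its value for each of these contrasts except CDC25A with CDC25C at 72 h (p = 0.4). Adjusted over the 5 pairs compared at 72 h, these p-values were 0.17 and 0.5, and over the same pairs at 48 h they were 0.12 for all 3 pairs of phosphatases. The comparison at 48 h was chosen after the values had been seen.

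WEE1, the nuclear inhibitory kinase of CDK1, passed as lower at 48 and 72 h, as did 2 of the 3 phosphatases that oppose it, CDC25A and CDC25C. Its arrays gave signals of 577, 614.4 and 489.2 at 0 h, 600.7, 485.1 and 659.2 at 8 h and 528, 611.7 and 509.7 at 24 h. They gave 282, 279.6 and 212.1 at 48 h and 122.3, 183.3 and 166.8 at 72 h. The first 3 times share 1 range, and the arrays at 48 h and then at 72 h lie below it without overlap. The change was 0.05 ± 0.14 at 8 h and -0.02 ± 0.14 at 24 h, then -1.08 ± 0.14 at 48 h and -1.74 ± 0.14 at 72 h (adjusted p = 9.7e-06 and 1.3e-08). Both steps passed the test, with -1.05 ± 0.14 and then -0.67 ± 0.14 (adjusted p = 3.3e-05 and 0.006).

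PKMYT1, the inhibitory kinase of CDK1 bound to the endoplasmic reticulum and Golgi, followed nearly the same course. The 3 arrays gave signals of 160.6, 159.1 and 153.2 at 0 h, 221.5, 179.6 and 213.9 at 8 h and 190.3, 149.5 and 226.7 at 24 h. They gave 81.6, 100.4 and 64.7 at 48 h and 55.9, 35.1 and 30.8 at 72 h. The 8 h arrays lie above all 0 h arrays, those of 24 h straddle them, and those of 48 and 72 h lie below in 2 separate steps. The change was 0.34 ± 0.17 at 8 h (adjusted p = 0.54), -0.84 ± 0.17 at 48 h and -1.64 ± 0.17 at 72 h (adjusted p = 0.00053 and 2e-07). Its only probe set is of the _x_at kind, whose probes can match other transcripts, so the value may include them. Within arrays the difference between WEE1 and PKMYT1 changed by -0.10 at 72 h, with values from -0.78 to 0.24 against -0.15 to 0.12 at 0 h (exact permutation p = 1, n = 3 arrays per time).

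PLK1, the Polo kinase that activates CDC25C, varied more between arrays of 1 time than the other 9 genes, with the largest standard error. Signals of its arrays were 461.7, 489.6 and 544.1 at 0 h, 650.6, 560.3 and 458.2 at 8 h and 603.3, 517.7 and 402.5 at 24 h. At 48 h they gave 216, 234.4 and 120.6 and at 72 h 79.9, 68.2 and 48.9. The arrays of the first 3 times overlap widely, with replicate 3 highest at 0 h and lowest at the other 4 times. The change was 0.14 ± 0.20 at 8 h and 0.01 ± 0.20 at 24 h, then -1.36 ± 0.20 at 48 h and -2.67 ± 0.20 at 72 h (adjusted p = 2.6e-05 and 3.4e-09). Its 2 steps were nearly equal, -1.37 ± 0.20 and -1.31 ± 0.20 (adjusted p = 6.6e-05 and 3e-04).

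AURKA, the Aurora kinase of centrosomes and spindle poles, fell in 2 steps as well. Its arrays gave signals of 956.7, 947.7 and 845.5 at 0 h, 1203.5, 1172 and 1022.4 at 8 h and 1050.6, 1117.2 and 867.9 at 24 h. They gave 521.8, 550.7 and 443.2 at 48 h and 254.8, 255.2 and 219 at 72 h. The 8 h arrays lie above all 0 h arrays, those of 24 h overlap both, and those of 48 and 72 h lie below. The change was 0.30 ± 0.10 at 8 h (unadjusted p = 0.01, limma's adjusted p = 0.33), -0.84 ± 0.10 at 48 h and -1.85 ± 0.10 at 72 h (adjusted p = 4.3e-06 and 8.4e-11). The steps were -0.98 ± 0.10 and -1.01 ± 0.10 (adjusted p = 2.4e-06 and 5.6e-06).

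AURKB, the Aurora kinase of the chromosomal passenger complex, ended lower against its own 0 h level than AURKA did. The 3 arrays gave signals of 483.4, 429.5 and 402.5 at 0 h, 557.5, 583.3 and 499.6 at 8 h and 483.3, 490.2 and 458.5 at 24 h. They gave 169.5, 152.5 and 84.7 at 48 h and 58.7, 52.7 and 54.3 at 72 h. The 8 h arrays lie just above all 0 h arrays, and at 72 h the 3 arrays agree closely at a low signal. The change was 0.31 ± 0.16 at 8 h (adjusted p = 0.56), -1.63 ± 0.16 at 48 h and -2.67 ± 0.16 at 72 h (adjusted p = 2.2e-07 and 1.3e-10). Within arrays the difference between AURKA and AURKB grew by 0.79 at 48 h and 0.82 at 72 h, outside the range at 0 h on all 3 arrays of either time (exact permutation p = 0.1, the smallest that n = 3 against 3 allows, adjusted p = 0.12 and 0.17).

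TTK, the kinase that starts the spindle assembly checkpoint, gave signals of 518.6, 537.4 and 443.1 at 0 h, 607, 574.5 and 574.1 at 8 h and 495.5, 537.9 and 452.7 at 24 h. It gave 228.9, 248.6 and 176.8 at 48 h and 96.3, 95.5 and 61.7 at 72 h. The 8 h arrays lie above all those of 0 h, the 24 h arrays are back within the range of 0 h or close to it, and the later arrays descend in 2 steps without overlap. The changes at 8 and 24 h, 0.23 ± 0.14 and -0.01 ± 0.14, did not pass (adjusted p = 0.65 and 0.97). Those at 48 and 72 h, -1.15 ± 0.14 and -2.38 ± 0.14, did (adjusted p = 2.6e-06 and 1e-10).

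NEK2, the kinase that splits the centrosomes before mitosis, gave signals of 391.1, 444.5 and 377.3 at 0 h, 521.7, 526.1 and 455.5 at 8 h and 483.1, 502.6 and 456.7 at 24 h. It gave 190.6, 236.5 and 160.1 at 48 h and 62.6, 60.9 and 41.3 at 72 h. All arrays at 8 and at 24 h lie above all those of 0 h, and those of 48 and 72 h lie below. The change was 0.30 ± 0.13 at 8 h and 0.24 ± 0.13 at 24 h, neither past the test (adjusted p = 0.47 and 0.24), then -1.0 ± 0.13 at 48 h and -2.58 ± 0.13 at 72 h (adjusted p = 7.9e-06 and 2.2e-11). Its later step was -1.58 ± 0.13, next to -1.56 ± 0.17 for CDC25C, and which of the 2 is greater depends on the added constant (-1.82 and -2.08 with 1 in place of 16).

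**Figure D2:**
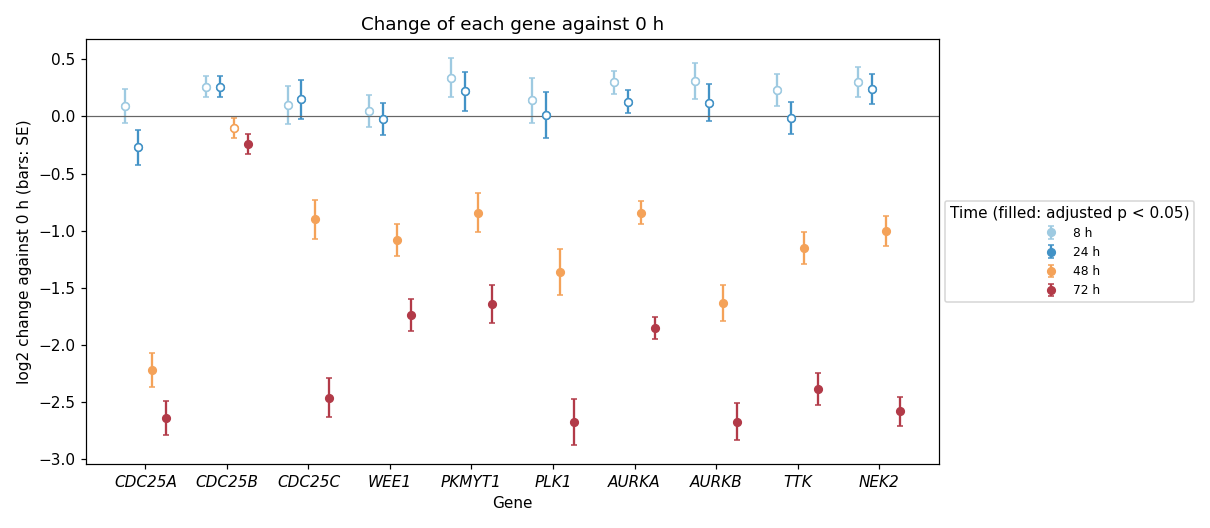
Change of each gene against 0 h on the log2(signal + 16) scale at 8, 24, 48 and 72 h, with bars for the standard error of the fit and filled points where the adjusted p was under 0.05. The open points of 8 and 24 h lie between -0.27 and 0.34, and at 72 h 9 genes lie between -1.64 and -2.67 with CDC25B at -0.24.

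Set side by side over time, only the fall after 24 h passed the test. At 8 h all 10 changes were above 0, with a median of 0.24 against 0.02 over all genes tested, but no gene passed. The sign held when arrays were scaled by quantiles or centred on their medians, but turned for CDC25A with the mean of its probe sets (-0.06), and for WEE1 with array weights (-0.04), without 0 h replicate 3 (-0.04), without 8 h replicate 3 (-0.05) and with replicates 1 and 2 alone (-0.14). Tested singly, 2 of the 3 probe sets of CDC25A (-0.06 ± 0.17 and -0.20 ± 0.17) and the dimmer one of NEK2 (-0.08 ± 0.20) lay below 0 at 8 h, and for 204696_s_at of CDC25A all 3 arrays lay below those of 0 h. Among all genes at 8 h, 0.0934% passed as higher and 0.357% as lower, so few genes of any kind were called at that time. For 6 of the 10 genes, CDC25B, PKMYT1, AURKA, AURKB, TTK and NEK2, all 3 arrays at 8 h lay above those of 0 h, as did 10.3% of all genes. At unadjusted p under 0.05 the 3 genes CDC25B, AURKA and NEK2 differed by limma's test, all as higher, as did 723 of all 11774 genes tested. With the replicate number as a block, AURKA passed at 8 h (0.30, adjusted p = 0.042).

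At 24 h no gene passed, 7 changes were above 0 and the median was 0.13 against 0.05 over all genes, while 7.74% of all genes passed as higher and 5.72% as lower. At unadjusted p under 0.05 only CDC25B differed, as higher, as did 2008 of all 11774 genes tested. For CDC25B and NEK2 all arrays at 24 h lay above those of 0 h, as they did for 20.5% of all genes. No gene passed between 8 and 24 h, where 2.54% of all genes passed as higher and 3.24% as lower. There 1 of the 10 was lower at unadjusted p under 0.05, as were 1112 of all 11774 genes tested. With array weights CDC25B passed at 24 h (0.24, adjusted p = 0.045), and so it did without 24 h replicate 2 (0.36, adjusted p = 0.019).

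From 24 h on the genes fell. At 48 h 9 of 10 had passed as lower than at 0 h, against 17.7% of all genes, and the same 9 had all arrays below those of 0 h, against 22.5%. With a change of at least 1 in size required as well, 6 passed, against 2.51% of all genes. At 72 h 10 of 10 passed as lower, against 22.7% of all genes, with all arrays below 0 h for each, against 25.1%, and 9 of 10 with a change of at least 1 in size, against 4.95%. The median change of the 10 genes was -1.04 at 48 h and -2.42 at 72 h, against 0.08 and 0.10 over all genes. All 10 also passed the F test over the 4 later times, as did 57% of all genes, with adjusted p from 9.1e-12 for NEK2 to 0.00033 for CDC25B.

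The steps between neighbouring times were most unequal for CDC25A. From 24 to 48 h all 10 genes passed as lower (10.5% of all genes), 8 of them with a change of at least 1 in size (1.45%), and from 48 to 72 h 8 passed (6.14%), 6 of them with at least 1 (0.747%). The 2 that did not pass in the later step were CDC25A and CDC25B. Testing the later step less the earlier one in the same fit, a contrast chosen after the values had been seen, gave 1.52 ± 0.25 for CDC25A (limma's adjusted p = 0.018), the only 1 of the 10 genes to pass, against 0.195% of all genes in that direction and 0.136% in the other. The contrast was next largest for AURKB (0.71 ± 0.27, adjusted p = 0.23) and lay below 0 for CDC25C (-0.50 ± 0.29, adjusted p = 0.47) and NEK2 (-0.33 ± 0.23, adjusted p = 0.54), none past the test. Both steps use the 48 h arrays, so a low 48 h array enlarges the first step and shrinks the second. The call for CDC25A was lost without 48 h replicate 3 (1.15, adjusted p = 0.13) or 48 h replicate 1 (1.58, adjusted p = 0.071), with the mean of its 3 probe sets (0.92, adjusted p = 0.075), and with replicates 1 and 2 alone (1.18, adjusted p = 0.074). In 3 of these 4 settings, all but the 1 without 48 h replicate 1, its later step then passed, at -0.61 without 48 h replicate 3, -0.54 with the mean of probe sets and -0.60 with replicates 1 and 2 alone. The later step also passed with array weights (-0.54, adjusted p = 0.014).

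**Figure D3:**
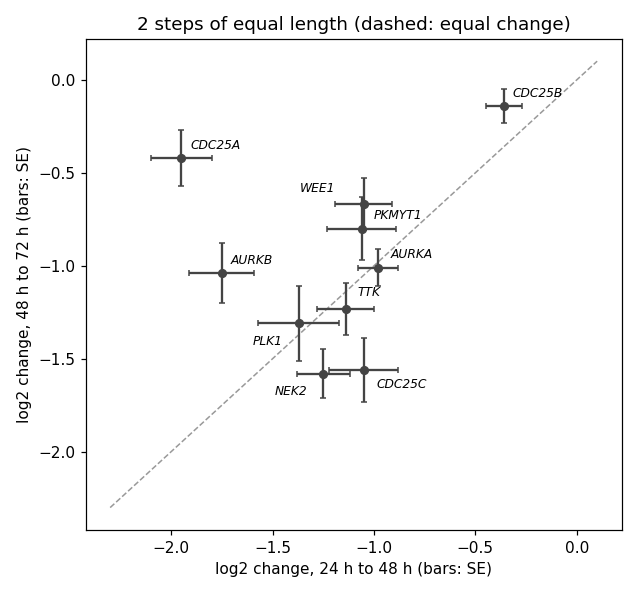
Change from 48 to 72 h (vertical) against change from 24 to 48 h (horizontal) for the 10 genes on the log2(signal + 16) scale, with standard errors as bars and a dashed line of equal change. CDC25A lies furthest above the line, at -1.95 and -0.42, while PLK1, AURKA and TTK lie close to it and CDC25C and NEK2 below it.

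Replicate 3 tended to be the lowest of its time for these genes. It gave the lowest signal for 8, 6, 7, 9 and 7 of the 10 genes at 0, 8, 24, 48 and 72 h, against 39.1%, 35.1%, 39.4%, 36.6% and 40.1% of all genes tested. As it was low at all 5 times, including 0 h, the differences between times were also computed with replicates 1 and 2 alone. The 9 genes other than CDC25B kept their calls at 48 and 72 h there, and CDC25B was at -0.20 at 72 h (adjusted p = 0.13).

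Other probe sets for the same genes were tested singly, with adjustment over 27307 probe sets. At 48 h 16 of 18 passed as lower, against 13.8% of all probe sets, and at 72 h all 18 did, against 19.3%. The 2 that did not pass at 48 h were that of CDC25B and the dim 208080_at of AURKA, whose signals were 14.6 to 31.3 at 0 h and 3.2 to 12.3 at 72 h and which gave -0.42 ± 0.26 at 48 h (adjusted p = 0.23) and -0.84 ± 0.26 at 72 h (adjusted p = 0.013). The brighter second probe set of AURKA, 204092_s_at, gave -1.73 ± 0.11 at 72 h, near the -1.85 ± 0.11 of the probe set that stood for the gene. NEK2 gave -2.58 ± 0.13 and -2.55 ± 0.20 with its 2 probe sets, and WEE1 gave -1.74 ± 0.15 and -1.33 ± 0.12. The filter took the log2 mean over all arrays, with a cut of 5.03. The dim 208080_at of AURKA (4.90 and 4.47) and 239219_at of AURKB (4.71 and 4.42) lay under it at 48 and 72 h. For CDC25C, 217010_s_at lay under it at 72 h (4.34). They passed the filter only through the earlier times, so their calls there add no support. Member probe sets called at 72 h were 17 with quantile normalisation and 17 of 19 without the filter.

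For CDC25A the 3 probe sets disagreed in size but not in direction, with -2.22 ± 0.15 (204695_at), -1.65 ± 0.17 (1555772_a_at) and -1.30 ± 0.17 (204696_s_at) at 48 h and -2.64 ± 0.15, -2.43 ± 0.17 and -1.71 ± 0.17 at 72 h. The later step less the earlier one was 0.62 ± 0.30 in each of the other 2 probe sets and did not pass there (adjusted p = 0.46 and 0.45). For CDC25C the probe set 217010_s_at went from 102.5, 75.3 and 61.7 at 0 h to 23.6, 21.9 and 13.1 at 48 h and 11.1, 2.1 and 1 at 72 h. Its change at 48 h was thus -1.42 ± 0.23, against -0.90 ± 0.17 for the brighter probe set, and its steps ran the other way, -1.70 and then -0.80, the last from signals already close to the added constant. The smaller change of CDC25C than of CDC25A at 48 h thus depends on which probe sets are compared.

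For AURKB the second probe set, 239219_at, was dim and gave 36.9, 34.2 and 27.2 at 0 h, 61.8, 62 and 48 at 8 h and 63.5, 60 and 46.7 at 24 h. All arrays at 8 and 24 h lay above those of 0 h, and the change at 24 h, 0.57 ± 0.17, passed the test as higher (adjusted p = 0.043), as did 4.68% of all probe sets. It was the only 1 of the 18 probe sets called at 24 h. The brighter probe set gave 0.12 ± 0.16 at the same time. The call was lost with 1 instead of 16 as the added constant, with quantile normalisation or median centring, and without the filter or with the brightest 25% of probe sets alone. It was also lost when any of 6 arrays was left out, those of 0 h, replicate 1 of 8 h or 24 h, or replicate 2 of 48 h. Later the dim probe set gave 13.4, 13 and 5.1 at 48 h and 7.3, 7.3 and 1.9 at 72 h, a change of -0.89 ± 0.17 and -1.19 ± 0.17, less than the -1.63 ± 0.16 and -2.67 ± 0.16 of the bright one on a scale that compresses low signals.

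**Figure D4:**
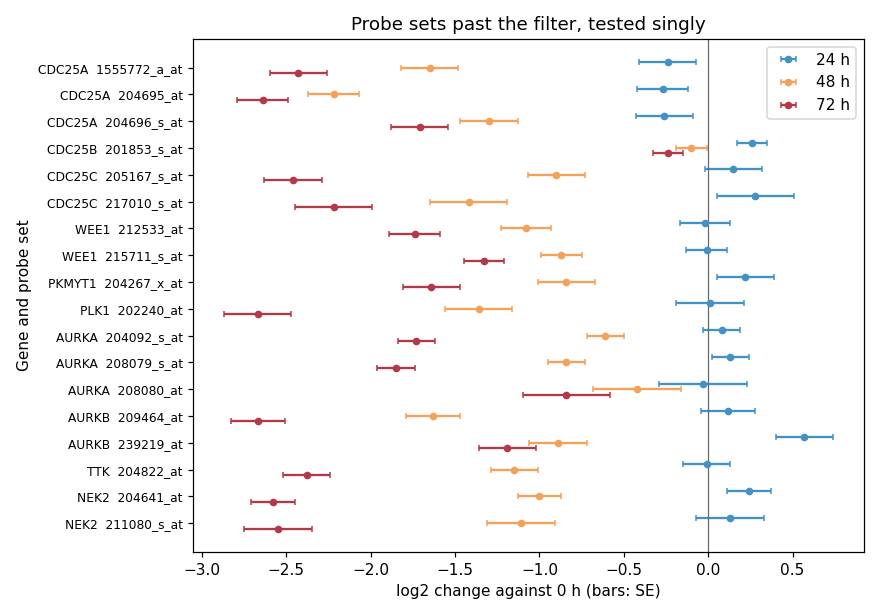
Change against 0 h at 24, 48 and 72 h on the log2(signal + 16) scale for each of the 18 probe sets past the filter, tested singly, with standard errors as bars. All 18 lie below 0 at 72 h, from -0.24 for CDC25B to -2.67 for PLK1 and the brighter AURKB probe set.

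Over the 15 arrays, the 45 pairs among the 10 genes correlated with Pearson's r of 0.747 to 0.994 (median 0.962), and 36 pairs reached 0.9. Points of 1 time share that time, so such r mainly describe the shared course and are given without a test. The highest r, 0.994, was between AURKA and TTK, and the lowest, 0.747, between CDC25B and WEE1. CDC25B reached 0.9 with 1 of the other members only, PKMYT1 (0.909), and with 3 of all genes tested, the others being CCNF (0.914) and WDR62 (0.913). Each of the other 9 genes had 534 (PKMYT1) to 751 (AURKB) genes at 0.9 or above.

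The 3 genes most like each member over all arrays were in part shared between members, and their r values lie close together. For CDC25A they were MYBL2 (r = 0.992), a transcription factor of the cell cycle, FEN1 (0.991), which processes Okazaki fragments, and BRI3BP (0.989). For WEE1 they were NEIL3, a DNA glycosylase, RFC5, a part of the clamp loader of replication, and GGH, at 0.986, 0.985 and 0.985. For CDC25C they were PTTG1 (securin), UBE2C and TOP2A at 0.994, 0.993 and 0.992. PKMYT1 was most like ESPL1 (separase), TACC3 and KIF18B, and PLK1 most like the kinesins KIFC1 and KIF2C and PIMREG, each at 0.981 or above. AURKA was most like DLGAP5, NUSAP1 and RACGAP1, all of the spindle or midzone, at 0.997, 0.995 and 0.995. AURKB was most like KIF22, TACC3 and SPAG5, TTK most like KIF2C, KIF4A and BIRC5, and NEK2 most like TOP2A, DLGAP5 and NUF2, all at 0.994 or above.

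The network around these genes was read from 9 lists, with counts from the same fit and no list test. At 72 h against 0 h, 22.7% of all genes had passed as lower and 32.8% as higher. Of the CDK1 complexes, 6 of the 9 genes tested (11 listed) passed at both 48 and 72 h, all as lower, with a median change of -1.70 at 72 h. CDK1 itself went from a mean signal of 2371.9 to 254.2 (-3.19 ± 0.22, adjusted p = 9.5e-10), CCNB1, its cyclin, from 1653.9 to 301.8 (-2.40 ± 0.10, adjusted p = 4.7e-12), and CCNA2, which pairs with CDK2 and CDK1, from 642.0 to 109.2 (-2.40 ± 0.13, adjusted p = 3.4e-11). The 3 that did not pass were CDK7 (0.07 ± 0.07), CCNH (0.04 ± 0.08) and MNAT1 (-0.11 ± 0.11), together the kinase that activates CDK1.

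Of the checkpoint kinases and their partners above CDC25 and WEE1, 4 of 9 tested (11 listed) passed as lower and 4 as higher at 72 h. CLSPN, the adaptor that lets ATR activate CHEK1, fell by 1.96 ± 0.16 (adjusted p = 8.1e-09), and CHEK1, which phosphorylates CDC25 proteins, fell by 1.55 ± 0.10 (adjusted p = 8.9e-10). The other 2 that fell were CHEK2 (-1.14 ± 0.11) and TOPBP1 (-0.98 ± 0.07). CDKN1A, the CDK inhibitor p21, rose by 1.88 ± 0.10 (adjusted p = 2.5e-11), from a mean signal of 530.8 to 1989.0, and ATM (0.85 ± 0.12), GADD45A (0.70 ± 0.10) and ATR (0.22 ± 0.07) rose as well.

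Of the 7 genes for 14-3-3 proteins, which hold phosphorylated CDC25 proteins in the cytoplasm, 4 passed at 72 h, all as lower, with small changes led by YWHAH (-0.78 ± 0.09), YWHAQ (-0.43 ± 0.07) and YWHAE (-0.32 ± 0.13). Of 10 ubiquitin ligase parts, 5 passed as lower and 2 as higher. CDC20, the activator of the anaphase-promoting complex, fell by 2.88 ± 0.15, UBE2C, its E2 enzyme, fell by 2.45 ± 0.13 and FBXO5 (Emi1), its inhibitor, fell by 1.81 ± 0.11. The 2 that rose were BTRC (0.51 ± 0.11) and FBXW11 (0.38 ± 0.10), the F-box proteins that recognise phosphorylated WEE1 and CDC25A.

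Of the 13 partners of the Polo and Aurora kinases, 10 passed at 48 h and 12 at 72 h, all as lower, with a median of -2.46 at 72 h. PRC1, which bundles midzone microtubules and carries PLK1, fell by 3.36 ± 0.14, BIRC5 (survivin), a subunit of the passenger complex with AURKB, fell by 3.01 ± 0.14, and BUB1B (BubR1), a checkpoint protein, fell by 2.90 ± 0.16. The 1 that did not pass was AJUBA (0.09 ± 0.14). In the list of the Greatwall branch, which restrains PP2A, and of phosphatases that oppose CDK1, 8 of 11 tested (12 listed) passed as lower and 2 as higher. Of the 8, MASTL and ENSA belong to the branch and the other 6, PPP2R2D, PPP2R2A, PPP2CA, PPP1CA, PPP1CB and PPP1CC, are subunits of the phosphatases. MASTL, the Greatwall kinase itself, fell by 2.23 ± 0.13, PPP1CC, a catalytic subunit of protein phosphatase 1, fell by 0.76 ± 0.09, and ENSA, a MASTL substrate that inhibits PP2A, fell by 0.68 ± 0.09, while ARPP19 (0.35 ± 0.10), the other such substrate, and CDC14B (0.56 ± 0.09) rose.

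Relatives of the members went both ways, as did genes in general. Of 10 other Polo and NEK genes tested (12 listed, with Aurora), 3 passed as lower and 3 as higher at 72 h, against 22.7% and 32.8% of all genes. PLK4, which duplicates centrioles, fell by 2.38 ± 0.13, whereas PLK2 rose by 1.99 ± 0.16, from a mean signal of 186.9 to 792.1 (adjusted p = 1.3e-08), and PLK3 rose by 0.67 ± 0.14. NEK7 fell by 1.26 ± 0.10 and NEK4 fell by 0.53 ± 0.08, and NEK9 rose by 0.34 ± 0.09. Of 8 other mitotic kinases tested (9 listed) 5 passed as lower, led by PBK (-3.63 ± 0.16), MELK (-2.88 ± 0.12) and VRK1 (-2.01 ± 0.12), and 1 as higher, STK10 (0.87 ± 0.11), which can phosphorylate PLK1.

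Of 17 transcription factor genes for G2/M promoters, 12 passed as lower and 1 as higher at 72 h. MYBL2 (B-MYB) fell by 2.92 ± 0.17 and FOXM1 fell by 2.91 ± 0.13 (adjusted p = 9.1e-11 and 4.8e-12), and E2F2 fell by 1.85 ± 0.13. The 1 that rose was RBL2 (p130), a pocket protein of the repressive DREAM complex, by 0.50 ± 0.10 (adjusted p = 0.00046). RBL1 (p107), the other pocket protein in the list, fell by 1.14 ± 0.12 (limma's adjusted p = 4e-07). Of other parts of that complex, LIN9 (-1.14 ± 0.14), LIN52 (-0.49 ± 0.14) and LIN54 (-0.48 ± 0.16) passed as lower. LIN37 (0.16 ± 0.11) and E2F4 (0.02 ± 0.13) did not pass. At 24 h at most 2 genes had passed in either direction in any of the 9 lists, while 7.74% of all genes passed as higher and 5.72% as lower. Among those that passed, CDKN1A (1.27 ± 0.10, limma's adjusted p = 9.3e-08) and RBL2 (0.66 ± 0.10, adjusted p = 0.00031) were already higher. So were PLK2 (0.64 ± 0.16, adjusted p = 0.014) and ATM (0.45 ± 0.12, adjusted p = 0.023). PPP1CC (-0.73 ± 0.09, adjusted p = 4e-05) and NEK7 (-0.66 ± 0.10, adjusted p = 0.00021) were already lower. Also lower were PRC1 (-0.57 ± 0.14, adjusted p = 0.0098), LIN9 (-0.57 ± 0.14, adjusted p = 0.0091), FBXO5 (-0.36 ± 0.11, adjusted p = 0.033) and PPP1CB (-0.27 ± 0.08, adjusted p = 0.03).

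**Figure D5:**
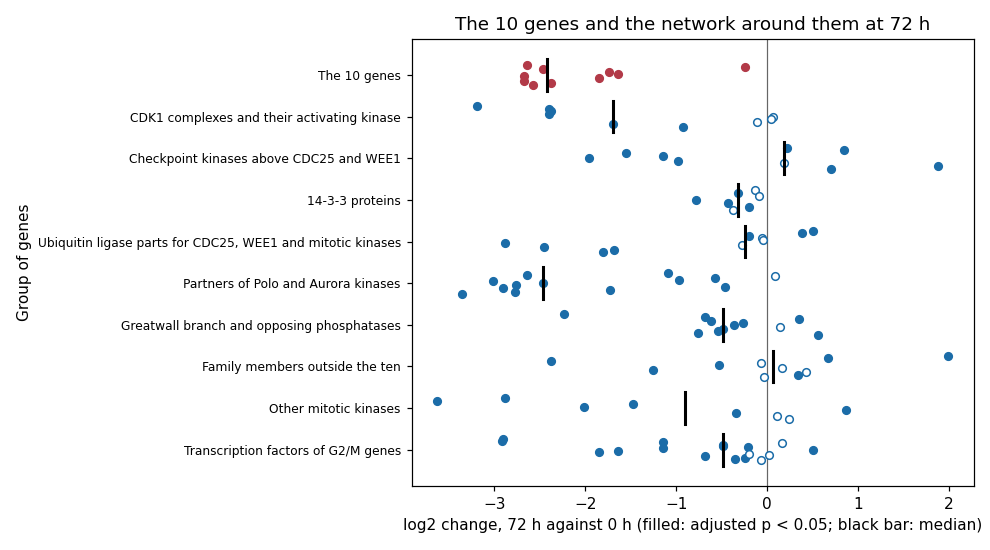
Change at 72 h against 0 h on the log2(signal + 16) scale for the 10 genes (top row) and 9 lists of genes around them, with 1 point per gene tested, filled where the adjusted p was under 0.05, and a black bar at the median. The 10 genes and the partners of Polo and Aurora kinases have medians of -2.42 and -2.46, while the lists of checkpoint kinases and family members hold points on both sides of 0.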

How the data were processed

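Each deposited value is the linear signal intensity of 1 probe set on 1 array, made with MAS5 and GCOS per the submitters' processing notes, with no versions stated. Per the labels, one-cycle labelling started from 4 µg of total RNA. The trimmed mean (2% at each end) was 100.01 on all 15 arrays, so values were used as deposited, and the number of arrays limits the precision. The median signal was 15.6 to 16.9 at 0 h and 17.3 to 20.5 at 72 h, and arrays of 1 time correlated at 0.977 to 0.991.

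Of 54675 probe sets, 62 were controls, 41091 named 1 gene, 1801 several and 11721 none, by the platform annotation. Values entered as log2(signal + 16). The filter kept the 27307 probe sets whose mean reached the median over non-control probe sets (5.03, a signal of 16.6), and the brightest for 1 gene stood for it. Time was fitted as a factor with limma 3.58.1 (lmFit, eBayes with trend) in R 4.3.3. The code was also run on simulated data with independent noise, and no result here rests on that run. Family pairs were tested by exact permutation. Python 3.11.15, pandas 2.3.3 and matplotlib 3.10.9 prepared tables and figures.

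The members and lists were chosen with earlier results of these data known. Named are all members, CDK2, of each list the 3 genes with the greatest change past the threshold at 72 h, CDK1, CCNB1, CHEK1, FOXM1 and MYBL2, and the 3 genes most correlated with each member. CDK7, CCNH, MNAT1, CHEK2, TOPBP1, ATM, ATR, GADD45A, BTRC, FBXW11, AJUBA, ARPP19, CDC14B, the subunits of PP2A and protein phosphatase 1 other than PPP1CC, PLK3, NEK4, NEK9, STK10, RBL2 and the cell markers are no part of the rule and were chosen for naming with their values in view. The same holds for RBL1, LIN9, LIN37, LIN52, LIN54 and E2F4. Alternatives changed the pseudocount, scaling, filter, probe set rule, variance prior, array weights, arrays and replicate block.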

Additional observations from a re-analysis of the deposited data

How the results depend on the processing

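Over 28 settings, 1960 changes of single members were recomputed, of which 1937 kept their call, 16 lost it and 7 gained it. Some of the 16 failed only the added requirement of a change of at least 1 in size, with adjusted p still under the threshold. The rest of the 16 were all changes of CDC25B. In 21 the sign turned, all at 8 h, at 24 h or between them, for changes between -0.14 and 0.08 in the turned fit, and in 0 of these did either fit pass (limma). The 1 member probe set called at 24 h became 0 with a pseudocount of 1, quantile normalisation, median centring, no filter, the brightest 25% of probe sets and a required change of 1, and 0 to 1 with 1 array left out. Member genes called at 24 h were 0 in the fit as reported, 1 with array weights, and 0 to 1 with 1 array left out. Requiring a change of 1 left 10 member probe sets at 48 h instead of 16. Without 1 array, member genes called at 72 h were 9 to 10, member probe sets 16 to 18, and genes called from 48 to 72 h 8 to 9. The difference between CDC25A and CDC25C at 72 h, -0.19, became 0.19 with a pseudocount of 1 and 0.08 with the mean of probe sets, and that between WEE1 and PKMYT1, -0.10, became 0.14 and 0.11, all within the replicate spread; the cause was not tested. Pairing by replicate number is not given in the labels. After the group means were removed, arrays sharing a number correlated at -0.08 to 0.35 (30 pairs) and the others at -0.28 to 0.17 (60 pairs), and 10 of 15 arrays had their best partner in their own number. For 0 with 48 h, 24 with 72 h and 48 with 72 h the lowest same-number value was 0.12. With the replicate number as a block, member genes called at 8 h became 1 instead of 0 (AURKA), and no other member gene call changed. Signals near the added constant of 16, as for CDC25C at 72 h, set a limit on the size of change that can be read.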
